A study of Drosophila melanogaster with 2 samples.

Results

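The genes described here are 10 Drosophila genes of the germline and of translational repression: bam, bgcn, osk, vas, tud, stau, nos, pum, brat and cup. They were listed by name, and the list was chosen by signals on these same arrays as well as by function: bam was known to be bright, and osk and nos to be dim. A gene was read through every probe set that the platform annotation assigns to it alone, a probe set being the group of short probes that reports 1 transcript region. In this way 9 of the 10 genes were measured, by 12 probe sets, whereas the arrays give 11983 genes in all such a reading. The gene cup had none and was not measured. The entry nos was matched to the germline gene nanos, because the abbreviation also stands for nitric oxide synthase.

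Both arrays come from S2 cells, an established line from fly embryos that resembles macrophage-like blood cells. The 2 samples, replicates 1 and 2, form 1 group: cells grown at 25 °C and soaked with dsRNA (double-stranded RNA) against GFP for 8 days, in 2 rounds of 4 days each. GFP is a jellyfish protein with no gene in flies. No cells without this dsRNA were analysed here, so its effect on any member cannot be measured. Separate cultures are not stated for the duplicates, so their spread may be technical.

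In the fly ovary and testis, Bam acts with Bgcn to switch a stem cell daughter towards differentiation, and the pair works by repressing the translation of chosen mRNAs. At the posterior of the egg, Oskar assembles the germ plasm together with Vasa and Tudor, after Staufen has helped to carry osk mRNA there. Nanos, Pumilio and Brat form a repressor on the 3′ ends of mRNAs such as hb, and Cup holds osk mRNA silent by binding the cap-binding protein eIF4E. Bam, Nanos, Oskar and Vasa are known mainly from germ cells, while Pumilio, Brat and Staufen also act in the nervous system.

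Signals were read against a background limit, namely the 95th percentile over 125 probe sets of 112 odorant and gustatory receptors, sensory genes that blood cells have little use for. The limit was 146 on replicate 1 and 136 on replicate 2, and detection of a gene meant that at least 1 of its probe sets exceeded the limit on both arrays. By this rule 6 of the 9 measured members were detected (bam, osk, tud, stau, pum and brat), and bgcn, nos and vas were not. Of all genes on the arrays 49.1% were detected. Since those levels helped to choose the list, the count is a description only. Of the 12 member probe sets, 7 passed on both arrays, 2 on 1 array and 3 on no array, and 38.3% of all probe sets passed on both.

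The calls of osk and bgcn depended on the limit, and that of osk also on the number of probe sets required. With the 99th percentile, 184 on replicate 1 and 279 on replicate 2, 5 of 9 members were detected (43.8% of all genes). The gene osk was not, as its brightest probe set passed on replicate 1 and missed on replicate 2, at 226. The count was also 5, without osk, where all probe sets of a gene were required (46.6% of all genes). With the brightest of 50 control probe sets as the limit, 7 of 9 were detected (55.5% of all genes), bgcn among them. The count was 6 with the 90th percentile (51.6% of all genes), without replicate 1 (50.6%) and without replicate 2 (49.7%).

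**Figure D1:**
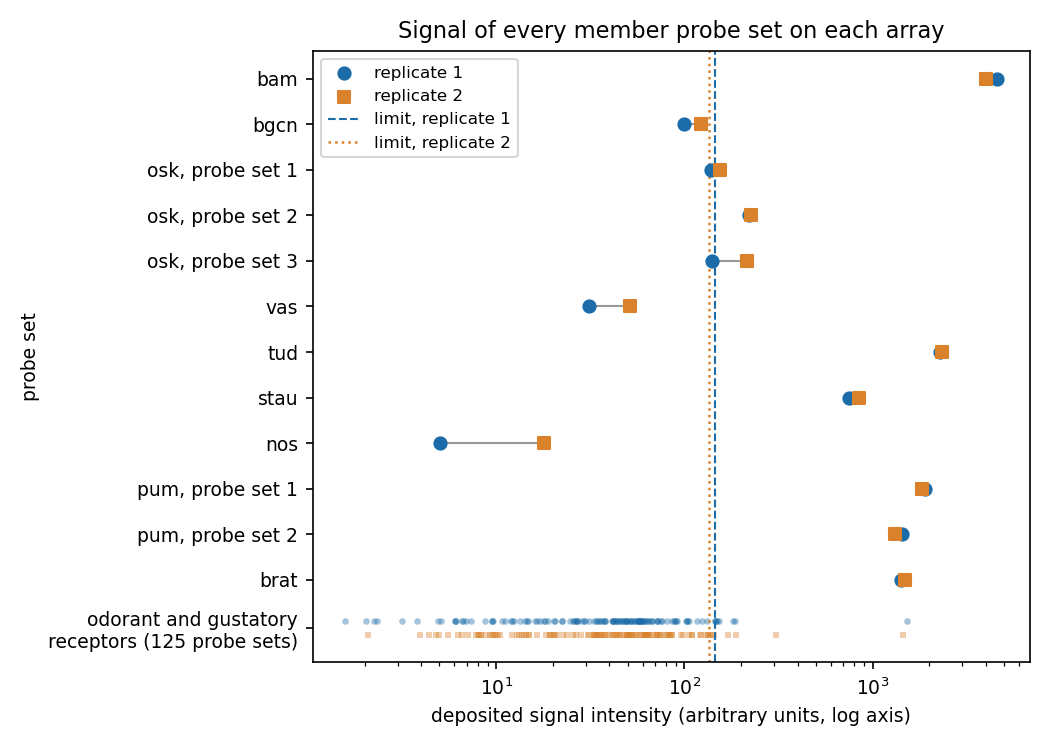
Deposited signal intensity (log axis) of each of the 12 member probe sets on replicate 1 (circles) and replicate 2 (squares), with the 125 receptor probe sets at the bottom and the limit of each array as a vertical line. The probe sets of bam, tud, stau, pum and brat lie to the right of both limits, those of osk lie close to them, and bgcn, vas and nos lie to the left.

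The differentiation factor gene bam (probe set 1634336_at) had signals of 4589 on replicate 1 and 3998 on replicate 2, or 4293 ± 417 (SD, n = 2). Those signals were 31.4 and 29.5 times the limits. None of the receptor probe sets was brighter, and 96.9% and 96.3% of all probe sets on the arrays were dimmer. A single probe set reports bam, so no second one was at hand to compare it with. Its partner bgcn, which encodes a protein related to RNA helicases, had signals of 99.02 and 123, or 111 ± 16.7 (SD, n = 2). Both bgcn values lay under the limit, at 0.678 and 0.904 times it, and 13 of the 125 receptor probe sets were brighter. Both also lay above the brightest of 50 control probe sets named by protein accessions, which reached 85.0 on replicate 1 and 70.3 on replicate 2. The bam signal was thus high on both arrays, and bgcn lay between the 2 background levels on both.

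Among the germ plasm genes, osk was the only member read by 3 probe sets. Probe set 1639953_at gave 220 and 226 on replicates 1 and 2, above the limit on both arrays. The signals of 1631153_at were 138 and 155, and those of 1640576_a_at were 140 and 215. These last 2 probe sets passed on replicate 2 and missed on replicate 1, at 0.944 and 0.957 times its limit. The detection of osk therefore rested on 1 probe set at 1.51 and 1.66 times the limits, and 2 of the receptor probe sets were brighter than it.

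The gene vas, for an RNA helicase of the DEAD-box family that marks germ cells, had signals of 31.0 and 51.1, or 41.1 ± 14.2 (SD, n = 2). Both values were below the limit, below both control maxima, and below 68 of the receptor probe sets on the mean of the arrays. The gene table lists vas under another identifier than the platform annotation does, so the annotation's name was kept. For nos, the RNA-binding partner of Pumilio, the signals were 5.06 and 18.0, or 11.5 ± 9.15 (SD, n = 2). Of the receptor probe sets 111 were brighter than nos. A signal under the limit does not show that a transcript is absent, since the arrays give no level below background.

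The scaffold gene tud, whose protein carries the Tudor domains that give the family its name, had signals of 2271 and 2343, or 2307 ± 50.8 (SD, n = 2). That was 15.6 and 17.3 times the limits, with no receptor probe set brighter. The gene stau, for a protein that binds double-stranded stretches of mRNA, had signals of 751 and 845, or 798 ± 66.4 (SD, n = 2). These were 5.14 and 6.23 times the limits, and 1 receptor probe set was brighter. So tud and stau passed on both arrays, while of the other germ plasm genes osk lay near the limit and vas under it.

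For the repressor gene pum, whose protein binds short motifs in mRNA 3′ ends, 2 probe sets were read. Signals of 1632418_s_at were 1897 and 1830 on replicates 1 and 2, and those of 1639335_at were 1436 and 1321. Both passed on both arrays, at between 9.73 and 13.5 times the limits, and 1 receptor probe set was brighter than 1639335_at. The gene brat, which encodes a growth-suppressing protein with an NHL domain, had signals of 1422 and 1487, or 1455 ± 46.5 (SD, n = 2). These were 9.74 and 11.0 times the limits, and 1 receptor probe set was brighter. Of the Nanos, Pumilio and Brat repressor, the transcripts of pum and brat were therefore above the limit on both arrays and that of nos on neither.

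The duplicate arrays differed little for the 7 member probe sets above the limit on both arrays, among them 1639953_at of osk, near the limit. Passing on both arrays itself favours probe sets that agree, above all near the limit. Over the 7, the log2 difference (replicate 2 minus replicate 1) ranged in size between 0.036 and 0.199. Of these, 4 were higher on replicate 2 and 3 on replicate 1. Their median was 0.04, and that of all detected probe sets was -0.0023 with an SD of 0.23. The largest of the 7 was that of bam, -0.20, beside an SD of 0.20 among the 200 probe sets nearest to it in signal. The dim members moved more, as dim probe sets did in general, where the SD was 1.12. The difference was 1.83 for nos, 0.72 for vas and 0.31 for bgcn, beside SDs of 1.28, 0.97 and 0.46 among their nearest probe sets. For osk the 3 probe sets differed by 0.04, 0.17 and 0.62, and the SD near the last, 1640576_a_at, was 0.36. Of the 12 member probe sets, 10 lay within 1 SD of the median of their nearest probe sets. Those beyond it were 1640576_a_at of osk and the nos probe set. With 1 array on each side no test was possible.

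**Figure D2:**
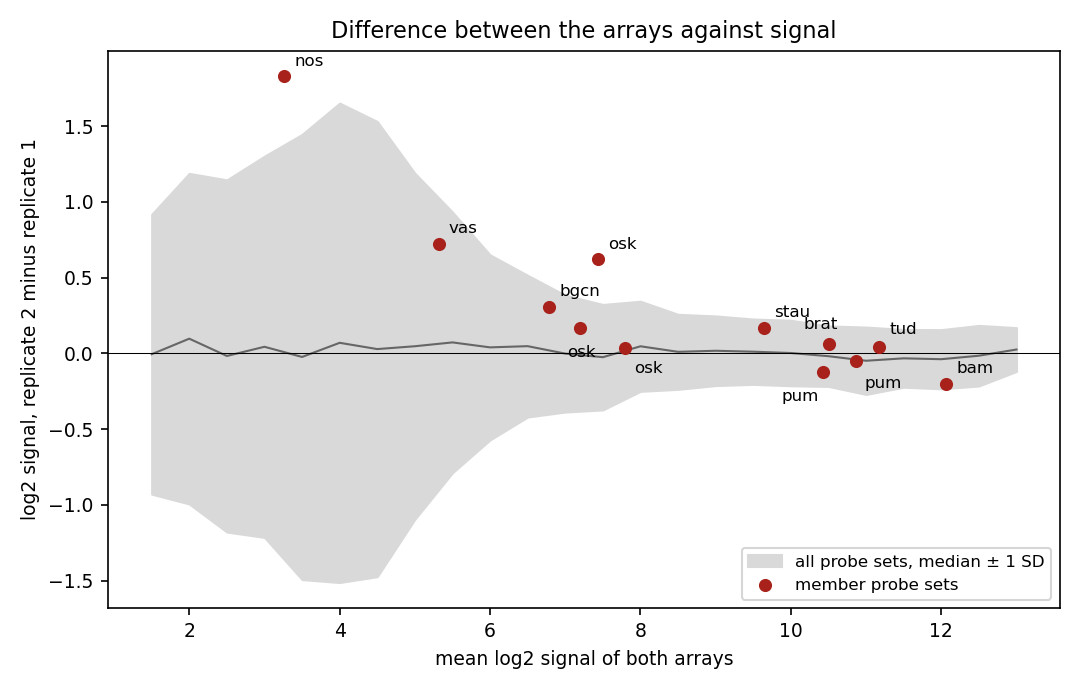
Difference between the arrays (log2 signal, replicate 2 minus replicate 1) of each member probe set against its mean log2 signal, over a grey band of the median ± 1 SD of all probe sets in classes of like signal. The band narrows as signal increases. The points of nos and of 1 osk probe set lie above it, at 1.83 and 0.62, and bam lies at -0.20.

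Proteins that bind or act with the members were read next, from a list of 30 genes of which 25 had a probe set of their own. Of these 21 were detected (84%, against 49.1% of all genes). The cap-binding protein gene eIF4E1, the factor that Cup binds, stood at 4323 ± 35.1 (SD, n = 2). Its relative eIF4EHP, which Brat uses to block the cap of hb mRNA, stood at 579 ± 110. The RNA helicase gene me31B and the cold-shock protein gene yps, both parts of the particles that carry silent osk mRNA, were at 2998 ± 53.7 and 4158 ± 496. The 4 genes not detected were otu, orb, orb2 and dnd, of which the last pair was named after the values were seen. The germline RNA-binding protein gene orb had signals of 31.0 and 3.30, and otu, needed for oogenesis, was at 48.3 ± 7.40. For orb2 the signals were 117 and 156, so it passed on replicate 2 alone, and dnd was at 115 ± 21.3.

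Proteins that act with Bam and Bgcn were in that list too, and tut, Sxl and twin were singled out after their values were seen. The gene tut, which encodes an RNA-binding partner of Bam and Bgcn in the testis, had signals of 575 and 644. Its mean was 610 ± 49.1 (SD, n = 2). The NHL-domain gene mei-P26, which acts with Bam in the ovary, was at 555 ± 16.7. The RNA-binding protein gene Sxl was at 1028 ± 54.8 by its brightest probe set, with 2 of 3 probe sets above the limit. The deadenylase gene twin was at 1260 ± 12.0. These 4 genes were above the limit on both arrays, as were 21 of the 25 measured partners and 49.1% of all genes. The partners otu, orb, orb2 and dnd, given above, were not detected, and bgcn itself lay under the limit. Since tut, Sxl and twin were picked with their values seen, their detection is a description of the named genes only. It does not show that the genes acting with Bam were detected as a set.

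In the list of relatives, other genes of the protein families of Brat, Vasa and Staufen, 10 of 11 were detected (90.9%, against 49.1% of all genes). The NHL-domain gene wech stood at 1211 ± 88.7 (SD, n = 2). The DEAD-box helicase gene bel was at 2380 ± 58.9. The undetected relative was tn, a muscle gene for an NHL-domain protein, at 7.25 ± 2.37. Both mei-P26 and me31B are counted in this list and among the partners.

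Known targets of the members were detected in 4 of 8 measured cases (50%, against 49.1% of all genes). The segmentation gene hb, on whose mRNA Nanos, Pumilio and Brat meet, had signals of 14.6 and 24.9, below the limit on both arrays. The maternal gene bcd, whose mRNA Staufen anchors, was at 24.8 ± 13.1 (SD, n = 2) by the brighter of its probe sets. The mitotic cyclin gene CycB, another Nanos and Pumilio target, was at 3115 ± 66.3. The gene grk, for a growth factor ligand whose translation depends on Vasa in the ovary, was detected at 844 ± 124. Also detected were Mad, a BMP signal transducer, at 877 ± 42.7 and zld, an activator of the early embryo genome, at 580 ± 72.8. Levels of mRNA do not show whether a target was translated.

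In germline stem cells the BMP pathway keeps bam silent, and 7 of 10 genes of that pathway were detected (70%, against 49.1% of all genes). The ligand gene gbb was at 2258 ± 162 (SD, n = 2), while the ligand gene dpp had signals of 67.4 and 34.1, below the limit on both arrays. The receptor genes tkv and sax were at 620 ± 60.8 and 1547 ± 10.5, tkv by 1 of its 2 probe sets. Medea (Med), the partner of Mad, had signals of 70.6 on replicate 1 and 135 on replicate 2. It was not detected, and the second value lay just under its limit. The pathway's feedback inhibitor gene Dad had signals of 145 and 160, so it passed on replicate 2 and lay just under the limit on replicate 1. Mad, given above, is counted here too. Whether BMP activity bears on the bam signal was not tested.

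**Figure D3:**
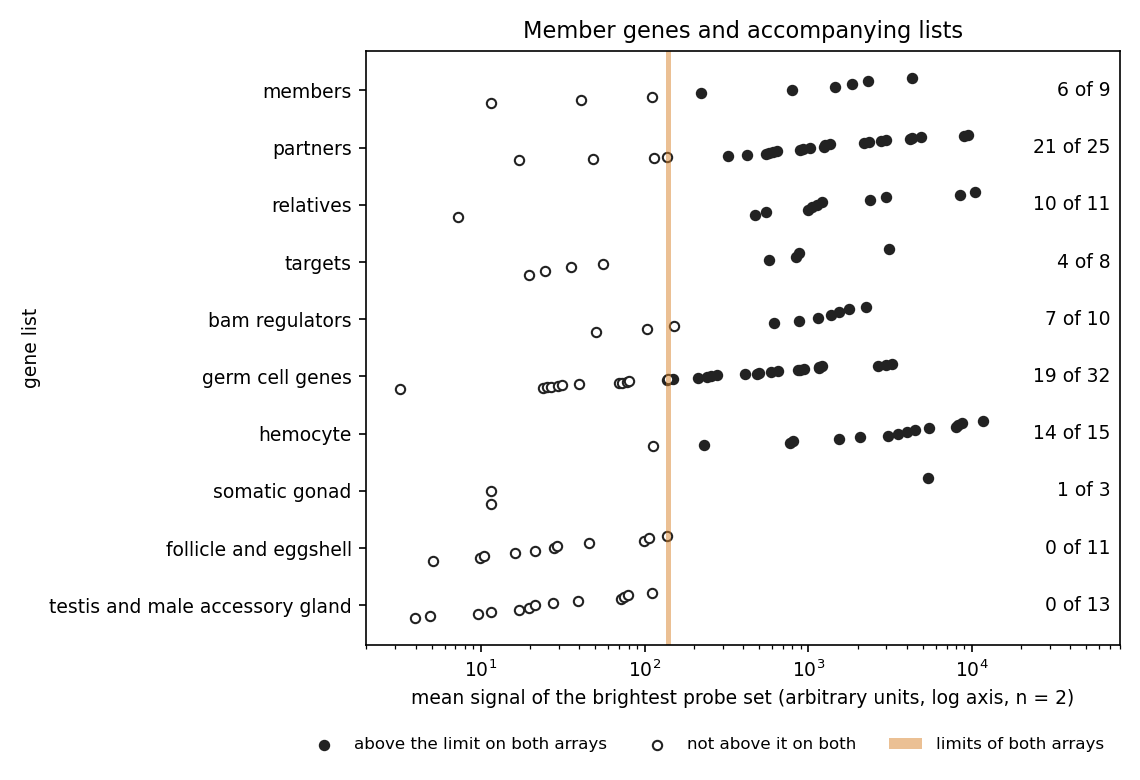
Mean signal over both arrays (log axis) of the brightest probe set of each measured gene, for the members and the accompanying lists, with filled points for genes above the limit on both arrays and the number detected at the right. The members run between 11.5 and 4293, with 6 of 9 filled, and no gene is filled in the follicle and testis lists.

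Among 32 measured genes of germ cells and germ plasm other than the members, 19 were detected (59.4%, against 49.1% of all genes). Of these 19, 11 came from 13 piRNA genes, a group drawn after the values were seen. The share is therefore not that of germ cell genes in general. The germ cell formation gene gcl was at 410 ± 51.5 (SD, n = 2) and the stem cell maintenance gene stwl at 256 ± 24.3. The germline gap junction gene zpg had signals of 90.1 and 66.2 and the germline transcription factor gene ovo had 4.50 and 1.91, so neither passed. Rbp9, an RNA-binding protein gene, had signals of 31.38 and 31.41 by the brighter of its probe sets. The oocyte thioredoxin gene dhd had 70.12 and 70.03, and neither gene passed. Dim probe sets differed more than this between the arrays in general, so such close values are no measure of precision. In this list some genes were thus well above the limit and others far under it.

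The spans of several members overlap other protein-coding genes in the RefSeq gene table, which gives no strand. The bam span overlaps CG11854, which had signals of 28.1 and 51.8 and was not detected. The bgcn span overlaps Pym, with signals of 857 and 797, and the nos span overlaps CG11779 (450 and 565) and Nsun5 (746 and 1083). The vas span overlaps vig, with 1889 and 1984, and solo, which was not measured. The pum span overlaps CG11997, which had 7.50 and 6.44, and the brat span overlaps CG17568, with 254 and 156, and Polr1D, which was not measured. A measured overlapping gene was thus detected for bgcn, nos and vas, which were below the limit, and for brat, which was above it. For bam and pum, both above the limit, it was not detected. Of all genes 49.1% were detected, and whether an overlapping gene bears on a member's signal was not tested. No overlapping protein-coding gene was listed for osk, tud or stau.

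Markers of cell types were read on the same arrays, where 49.1% of all genes were detected. These lists were chosen with earlier results of these data known, so their counts are no independent check of the cells. Of 15 hemocyte (blood cell) markers 14 were detected, or 93.3%, and the exception was the phagocytic receptor gene NimC1, at 112 ± 21.7 (SD, n = 2). None of 11 follicle and eggshell genes and none of 13 testis and accessory gland genes was above the limit on both arrays, although Cp15, a chorion gene, passed on replicate 2 at 161. Of the 3 measured somatic gonad genes only zfh1 was detected, at 5379 ± 66.0.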

How the data were processed

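Gene expression was measured on 2 Affymetrix Drosophila Genome 2.0 arrays of S2 cells, 1 per replicate. Per the labels' protocols, RNA was amplified from oligo-dT primers into biotin-labelled RNA, and 10 µg were hybridised for 16 hours. Per the series' design text, data came from GeneChip Operating Software 1.2. How probes were summarised and scaled was not given in the sources used here. Signals in the table that the authors deposited are linear intensities, 1 for each probe set on an array, and were used unchanged. Their median was 70.8 for replicate 1 and 73.8 for replicate 2. They are not counts, so the number of arrays limits the precision.

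Probe sets were named from the platform annotation, in which 13647 of 18952 have 1 gene. Symbols were updated through a RefSeq table of the release 6 assembly, used for names and neighbours alone. Levels are means ± SD of both arrays. Probe sets differ in response, so a signal's place among other probe sets describes brightness on the array and does not rank transcripts by abundance. Signals under 1 were raised to 1 before log2. Python 3.11.15 and pandas 2.3.3 were used, and the scripts were tested on simulated data.

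With 1 group, no test was made. The members and lists were chosen with earlier results of these data known. Named genes were all members, the first 4 measured genes of each accompanying list as written, and up to 2 more that were called unlike most of their list. The targets list was split evenly, and there the further 2 were detected genes. Marker lists are given by counts and exceptions. The alternatives were other percentiles, a limit from 50 control probe sets, all probe sets of a gene, each array alone, median scaling, quantile normalization and a floor of 16.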

Additional observations from a re-analysis of the deposited data

How the results depend on the processing

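Detection of bam, tud, stau, pum and brat held under all 7 alternatives, and nos and vas were detected under none. Counts of detected members ran between 5 and 7 of 9, moved by osk and bgcn as described above, and quantile normalization left the count at 6. The follicle count of 0 became 1 with the 90th percentile, 3 with the control limit, and 1 or 0 without replicate 1 or 2. The testis count of 0 became 1 with the control limit. The other 59 list counts stayed within 1.5 times, though not all kept their distance from the share of all genes. With the 99th percentile 14 of 32 germ cell genes were detected, or 43.8%, as of all genes. Under the other alternatives that count was between 19 and 21. Where all probe sets were required, 5 of 10 bam regulators passed (50%, against 46.6% of all genes), and otherwise 7 or 8 did. Median scaling turned the small differences of 1 osk probe set and of tud to -0.02 each, and a floor of 16 brought that of nos to 0.17. No paired analysis was possible because there is 1 group. Signals near or under the limit cannot be told from background.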

Other observations

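The annotation assigns 1 probe set to both cup and CG34310, and it had signals of 857 and 823 on replicates 1 and 2, above the limit on both arrays. Neither gene has a probe set of its own, so the signal cannot be assigned to cup. Another probe set is shared by vas and wwk, and it had signals of 48.0 and 89.8, below the limit on both arrays.

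Outside the naming rule, and chosen after their values were seen, 13 piRNA genes of the germ cell list were read as a group, and 11 of them were detected (against 49.1% of all genes). The PIWI-family gene aub was at 2968 ± 24.7 (SD, n = 2), the Tudor-domain gene krimp at 2651 ± 234, and spn-E, which encodes a Tudor-domain helicase, at 864 ± 80.9. The 2 that were not detected were piwi, with signals of 144 and 136, of which the second passed its limit, and qin, at 73.2 ± 10.7 by the brighter of its probe sets. The actin nucleator genes spir and capu, which are needed to localise osk mRNA in the oocyte, were at 3237 ± 186 and 1159 ± 45.2. Of 3 testis meiotic arrest genes in the list, can and aly were not detected, at 25.5 ± 2.23 and 39.7 ± 4.83, and topi was, close to the limits at 151 and 145.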
